A study of Mus musculus with 14 samples.

Results

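The genes described here encode the collagens and a fixed set of fibroblast matrix genes: fibronectin (Fn1), Sparc, periostin (Postn), lumican (Lum), decorin (Dcn), the PDGF receptors Pdgfra and Pdgfrb, the fibroblast activation protein Fap and smooth muscle actin (Acta2). They were chosen by symbol, as genes whose probe sets carried exactly 1 symbol on both array designs of the study, with 1 probe set per gene. Earlier results of these data were known when the list was drawn up. The rule gave 53 genes, 44 collagens and 9 others, out of 22180 genes on the first design. One of the 10 genes that the rule names beside the collagens was not analysed here. Of the 53, Col19a1 and Col28a1 lay in the lowest 25% of genes by mean level (below 4.94 on the log2 scale), and 51 were tested among 16635 genes.

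Fibrillar collagens form the tensile fibres of connective tissue, and collagen IV forms the sheet-like network of basement membranes. Collagen VI builds beaded filaments around cells, and the FACIT collagens, among them Col12a1 and Col14a1, sit on the surface of fibrils. In solid tumours this matrix is made largely by fibroblasts, while endothelial cells and pericytes contribute to the collagen IV of vessel walls.

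Tumours were grown from B16-F10 cells, which come from a pigmented melanoma of the mouse. According to the labels, cells in Matrigel were placed under the skin of C57BL/6 mice, in the right flank (day 0) and then the left (day 2). The right tumour received 20 Gy of radiation (day 8), and the CTLA4-blocking antibody 9H10 was injected on days 5, 8 and 11. The sublines Res 499 and Res 177 were isolated from unirradiated tumours that resisted this therapy or came back, and implanted again; control tumours were grown from therapy-sensitive cells. The first array design held 4 control, 7 Res 499 and 1 Res 177 tumour, and the second held 1 control and 1 Res 177 tumour. The labels do not say whether the profiled tumours had been treated, how many tumours gave rise to a subline, whether each mouse gave 1 tumour, or the age of the mice. The p-values therefore measure only how far these tumours differ from one another, part of which may be technical.

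The arrays of the first design had medians between 5.70 and 5.80 and correlated with each other at 0.977 to 0.993. As a check of the labelled melanoma, the melanosome gene Pmel stood at 13.36 on average and the pigment enzyme gene Dct at 13.70, both far above the 4.94 of the filter. Markers of fibroblasts (Dpt, 5.33 to 9.55 in Res 499), pericytes (Rgs5, 9.05 to 9.97) and macrophages (Adgre1, 6.15 to 9.60) were measured in the same bulk RNA. No list gene of skeletal muscle, adipocytes or keratinocytes passed the threshold in Res 499 against control. In these bulk samples, fewer cells of a type and less RNA per cell cannot be told apart.

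Res 499 tumours were compared with control tumours to ask whether the matrix genes differ in tumours of resistant cells. None of the 51 members passed the threshold of 0.05 (limma, Benjamini-Hochberg over 16635 genes), where 59 genes or 0.355% of all genes did. That gene count was 6 when control replicate 4 was left out, 196 when Res 499 replicate 2 was left out and 356 with array weights; the members' count was 0 in each. At an unadjusted p under 0.05 there were 2159 genes and 1 member, Col10a1. The median difference over the members was 0.00, beside 0.01 over all genes, with 26 members higher and 25 lower in Res 499. For 0 of 51 members did the 7 Res 499 tumours lie wholly outside the range of the 4 controls, beside 2.39% of all genes. The smallest adjusted p of a member was 0.35. For 42 members the 95% interval of the difference lay within 1 log2 unit either way. Some of these 42 were dim, such as Col4a3 (mean 5.10) and Col6a5 (5.13), near the filter at 4.94. A narrow interval at such levels says little about the gene. Of the members tested, 31 lay above the median level of all genes, 6.37. For Col1a1, Col1a2, Col3a1, Col12a1, Dcn, Fn1, Lum, Pdgfra and Postn the interval reached past 1, so a change of that size was not resolved.

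Among the fibrillar collagens, Col1a1, which encodes the main chain of type I collagen, had levels of 9.23, 7.95, 8.78 and 8.31 in control replicates 2 to 5. In Res 499 replicates 1 to 7 it stood at 9.67, 9.40, 9.27, 7.58, 9.15, 7.97 and 6.87, and in Res 177 at 8.64. Of the Res 499 tumours, 4 lay near or above the highest control and 3 lay near or below the lowest, so the group means were almost equal, at 8.57 ± 0.56 (SD, n = 4) and 8.56 ± 1.08 (SD, n = 7). The difference was -0.01 (SE 0.50, 95% interval -1.10 to 1.08). Its partner chain Col1a2 ran from 7.45 to 8.33 in control and from 6.85 to 9.03 in Res 499, a difference of 0.14 (SE 0.40). Col3a1, the chain of type III collagen found beside type I, ran from 7.27 to 8.31 in control and from 6.84 to 9.05 in Res 499, a difference of 0.46 (SE 0.47). The Res 499 tumours again split around the controls: 4 of them stood at 8.84 to 9.05 and the other 3 at 6.84, 7.06 and 7.35. Col5a1 and Col5a2, chains of the type V collagen that nucleates fibrils, differed by 0.04 (SE 0.15) and 0.16 (SE 0.19). The cartilage collagen Col2a1 had the lowest difference of this class, -0.19 (SE 0.10, adjusted p = 0.451).

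The matrix glycoproteins and proteoglycans were also spread. Dcn, a small leucine-rich proteoglycan that binds collagen fibrils, had levels of 8.44, 6.97, 7.76 and 7.54 in control replicates 2 to 5. In Res 499 replicates 1 to 7 it stood at 9.05, 10.60, 10.48, 6.01, 9.98, 7.36 and 6.84, and in Res 177 at 10.07. Both the highest and the lowest Dcn value of the first design were in Res 499 tumours, and the difference of 0.94 (SE 0.84, adjusted p = 0.698) was well inside that spread. Postn, a secreted protein of remodelling tissue, ran from 8.22 to 9.99 in control and from 7.61 to 10.33 in Res 499, a difference of 0.28 (SE 0.60). Lum, the related keratan sulphate proteoglycan, was tight in control, at 5.32 ± 0.10 (SD, n = 4), and ran from 5.08 to 6.92 in Res 499. Its difference was 0.63 (SE 0.30, 95% interval -0.02 to 1.28, adjusted p = 0.4). Replicates 4, 6 and 7 stood at 5.08, 5.47 and 5.44, close to the controls, and replicates 2 and 3 at 6.92 and 6.69. Fn1 ran from 10.81 to 11.99 in control and from 9.80 to 12.13 in Res 499 (difference -0.19, SE 0.38). Sparc, a collagen-binding matricellular protein, was nearly even over all tumours, at 11.10 ± 0.07 (SD, n = 4) in control and 11.18 ± 0.24 (SD, n = 7) in Res 499.

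**Figure D1:**
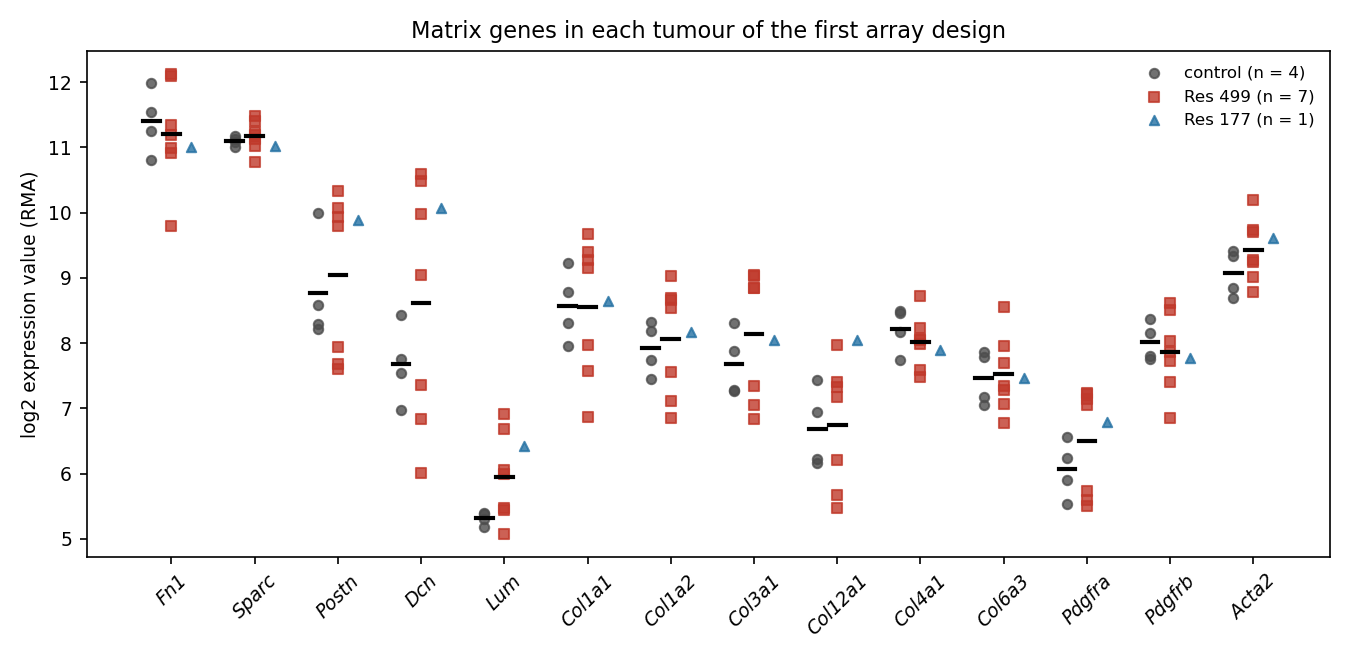
Log2 expression values of 14 members in each tumour of the first array design, by group; points are tumours and black lines the means of groups with more than 1 tumour. The Res 499 values of Dcn run from 6.01 to 10.60 and span the control values, as they do for Col1a1, Col3a1 and Postn, whereas Sparc stays between 10.77 and 11.48.

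In the basement membrane, the collagen IV chains of vessel walls, Col4a1 and Col4a2, differed by -0.20 (SE 0.21) and -0.28 (SE 0.22). Col4a1 ran from 7.75 to 8.50 in control and from 7.48 to 8.72 in Res 499, and Col4a2 from 7.31 to 8.01 and from 6.82 to 8.15. The multiplexin Col18a1, whose fragment is endostatin, had the largest lower value of any member, -0.32 (SE 0.17, 95% interval -0.68 to 0.03, adjusted p = 0.436), and Col15a1 differed by 0.08 (SE 0.19). Both basement membrane classes overlapped between groups in every gene. Col15a1 was tight in control, at 6.79 ± 0.03 (SD, n = 4), and ran from 6.26 to 7.42 in Res 499. Col4a3, a chain of specialised basement membranes such as that of the kidney, differed by 0.03 (SE 0.06).

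The collagen VI chains Col6a1, Col6a2 and Col6a3 differed by 0.10 (SE 0.18), -0.07 (SE 0.23) and 0.06 (SE 0.29). Col6a3 was highest in Res 499 replicate 1, at 8.55, where the other 6 Res 499 tumours lay between 6.77 and 7.96 and the controls between 7.06 and 7.86. The later-described chains Col6a5 and Col6a6 had the extreme differences of this class, 0.16 (SE 0.11) and -0.07 (SE 0.06). Among the fibril-associated collagens Col14a1 had the highest difference, 0.23 (SE 0.35), and Col9a3, a cartilage chain, the lowest, -0.15 (SE 0.10). Col12a1 ran from 6.16 to 7.44 in control and from 5.47 to 7.98 in Res 499 (difference 0.06, SE 0.46). Col8a1, a short-chain collagen of vessel walls, ran from 6.78 to 7.51 and from 6.02 to 8.06 (difference 0.01, SE 0.36).

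Col10a1, the collagen of hypertrophic cartilage, stood at 6.54 ± 0.21 (SD, n = 4) in control and 6.30 ± 0.15 (SD, n = 7) in Res 499, a difference of -0.24 (SE 0.10, unadjusted p = 0.0382, adjusted p = 0.35). The anchoring-fibril collagen Col7a1 differed by 0.04 (SE 0.08), the transmembrane collagens Col23a1 and Col25a1 by -0.08 (SE 0.13) and -0.02 (SE 0.09), and Col26a1 by -0.01 (SE 0.08). The signs of the last 3 rest on differences smaller than their errors.

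Of the receptors and activation markers, Pdgfra, the PDGF receptor typical of fibroblasts, differed by 0.43 (SE 0.39) and Pdgfrb, which marks pericytes as well, by -0.17 (SE 0.29). Pdgfra ran from 5.54 to 6.57 in control and from 5.50 to 7.23 in Res 499, where 4 tumours were at 7.06 to 7.23 and 3 at 5.50 to 5.73. Fap, a membrane protease of activated fibroblasts, differed by 0.09 (SE 0.19), and Acta2, which marks smooth muscle, pericytes and myofibroblasts, by 0.34 (SE 0.24, adjusted p = 0.6). The 17 members not named so far had differences between -0.13 and 0.12.

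**Figure D2:**
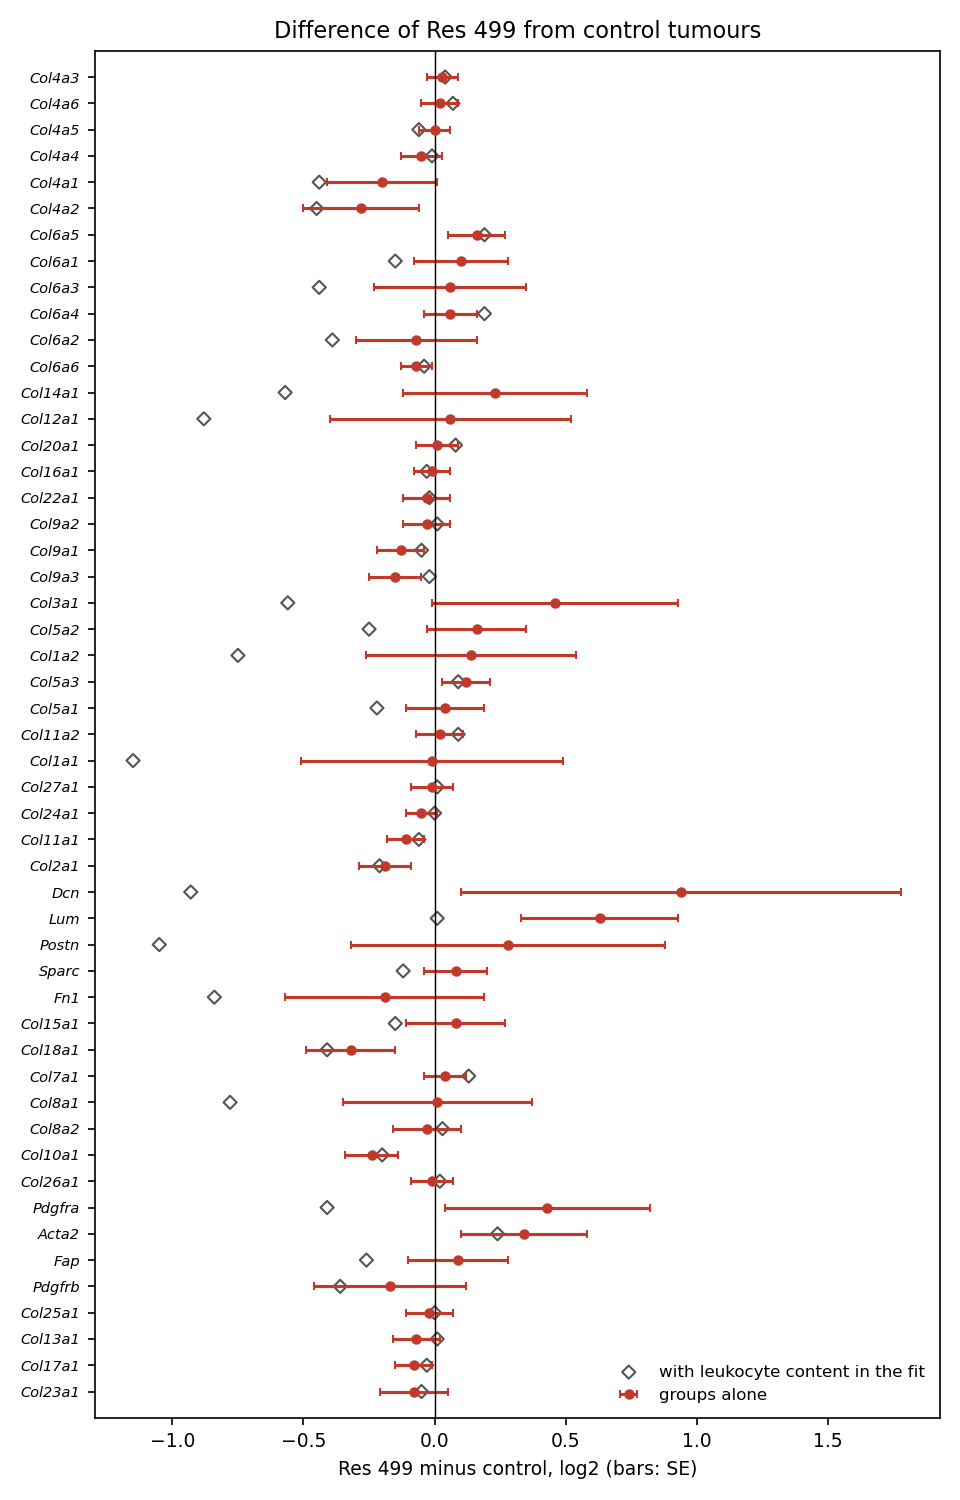
Difference of Res 499 (7 tumours) from control (4 tumours) on the log2 scale for the 51 members tested, ordered by class, with bars of 1 SE; open diamonds give the difference with leukocyte content in the fit. The filled points scatter on both sides of 0, and the diamonds of Col1a1 (-1.15), Postn (-1.05) and Dcn (-0.93) lie farthest to the left.

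The spread of the members within each group was also described. The median SD over the members was 0.18 in control and 0.20 in Res 499, beside 0.13 and 0.15 over all genes tested. The SD was larger in Res 499 than in control for 37 of 51 members (72.5%) and for 60.2% of all genes. Dcn had an SD of 1.87 in Res 499 and 0.61 in control, and Col14a1 one of 0.79 and 0.17. No test of the spread was made, and the groups differ in size.

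Since leukocyte genes also vary between these tumours, each gene was fitted against leukocyte content, the mean log2 level of 5 genes (Ptprc, Cd53, Coro1a, Laptm5 and Lcp2) centred over the 12 tumours, with the 3 groups as further terms. The content was -0.76 to -0.32 in control and 0.39 in Res 177. In Res 499 it was 0.74, 1.08, 1.10 and 0.67 in replicates 1, 2, 3 and 5, and -0.29, -0.32 and -0.98 in replicates 4, 6 and 7. The tumours thus fall into a lower set of 7 and a higher set of 5, with no value between -0.29 and 0.39, and the slope rests largely on that gap. The single Res 177 tumour is taken up by its own group term, so the slope comes from the other 11 tumours.

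Levels of 11 of the 51 members (21.6%) increased with leukocyte content at an adjusted p under 0.05, and none decreased; 2.55% of all genes tested increased. Dcn had the steepest slope, 2.12 log2 units per unit of content (SE 0.28, adjusted p = 9.52e-04). Postn followed at 1.51 (SE 0.20) and Col1a1 at 1.29 (SE 0.15, adjusted p = 4.41e-04). The other fibrillar chains called were Col3a1 at 1.16 (SE 0.17), Col1a2 at 1.01 (SE 0.14) and Col5a2 at 0.46 (SE 0.08). Col12a1 and Col14a1 of the fibril-associated class had slopes of 1.06 (SE 0.21) and 0.91 (SE 0.11). Pdgfra (0.96, SE 0.15), Col8a1 (0.90, SE 0.13) and Lum (0.71, SE 0.13) completed the set. Of the 11 genes, 7 are among the 42 collagens tested and 4 among the 9 other members.

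The other 40 members did not pass. At an unadjusted p under 0.05 there were 18 members and 1658 genes, which leaves 7 members beside the 11. Fap narrowly missed, at 0.40 (SE 0.10, adjusted p = 0.0524), and Fn1 (0.73, SE 0.22, adjusted p = 0.155), Col6a3 (0.56, SE 0.17, adjusted p = 0.157), Col5a1 (0.29, SE 0.09, adjusted p = 0.152), Sparc (0.23, SE 0.07, adjusted p = 0.116), Col6a2 (0.37, SE 0.15, adjusted p = 0.423) and Col6a1 (0.29, SE 0.12, adjusted p = 0.421) were the others. In the vessel-wall class, Col4a1 had 0.27 (95% interval -0.07 to 0.60, adjusted p = 0.675), Col4a2 0.20 (SE 0.16), Col15a1 0.26 (SE 0.13) and Col18a1 0.09 (SE 0.13). Pdgfrb had 0.22 (SE 0.22, adjusted p = 0.88) and Acta2 0.12 (SE 0.19, adjusted p = 0.941). The intervals of Col1a1 (0.95 to 1.63) and Col4a1 do not overlap; the difference between the 2 slopes was not tested. The remaining 27 members had slopes between -0.15 and 0.07.

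**Figure D3:**
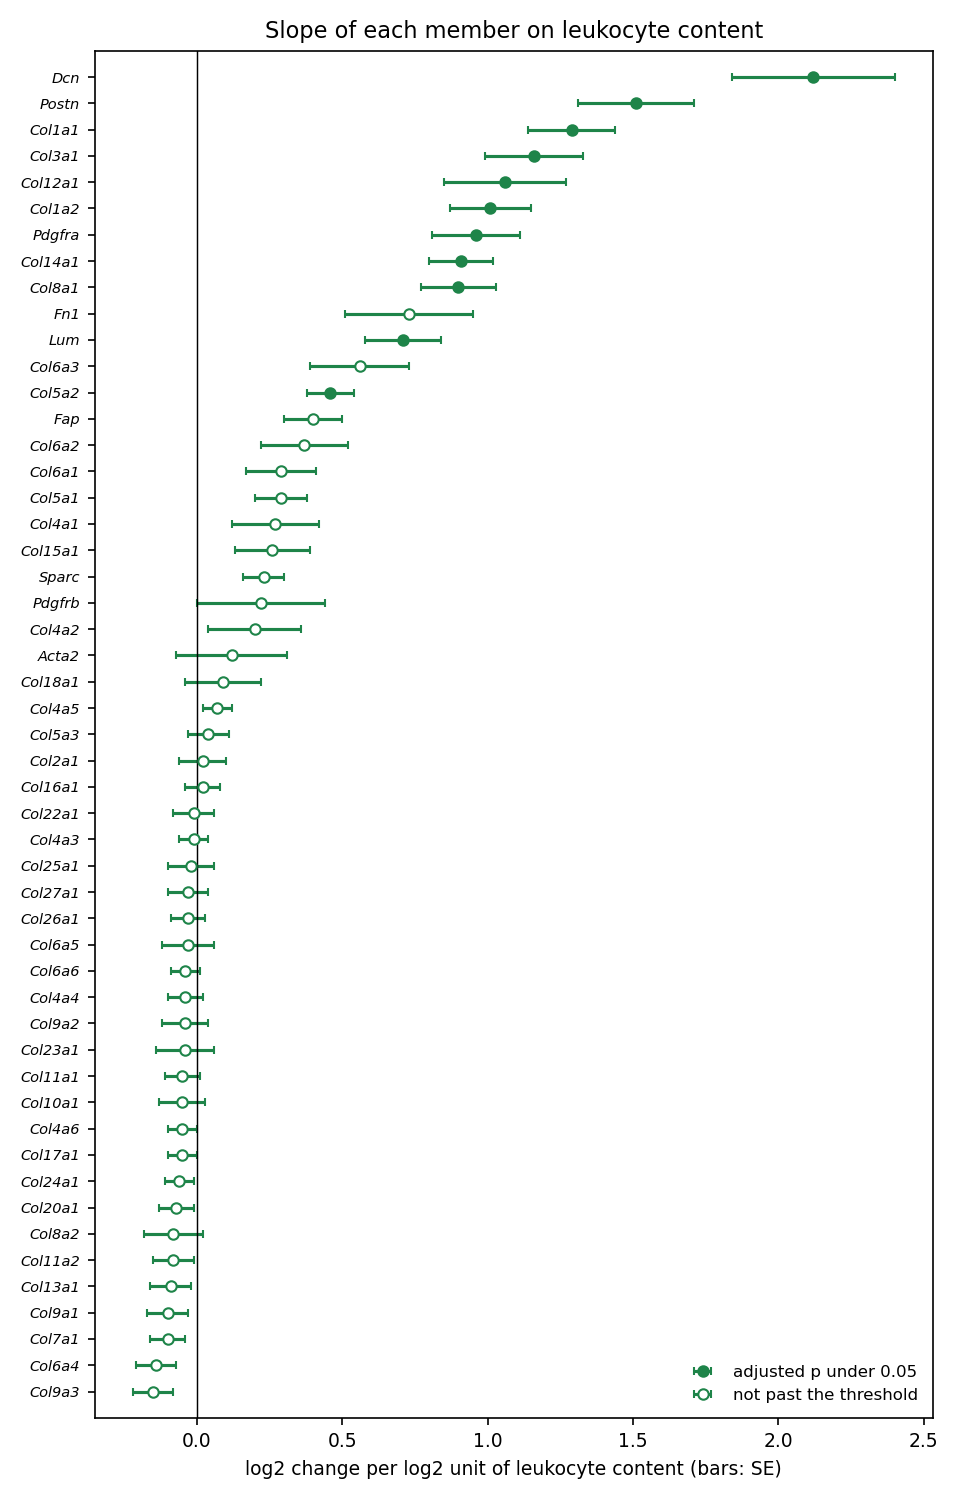
Slope of each of the 51 members on leukocyte content over the tumours of the first design, in log2 units per log2 unit, with the 3 groups in the fit and bars of 1 SE; filled points passed the threshold. The 11 filled points run from 0.46 for Col5a2 to 2.12 for Dcn, and most of the rest lie close to 0.

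In the 7 Res 499 tumours alone, which carry most of the slope, the same 11 of 51 members passed, beside 2.07% of all genes (Col1a1 1.27, SE 0.13; Dcn 2.11, SE 0.32). In the 7 tumours of lower content, 4 control and 3 Res 499, no member and no gene passed; at an unadjusted p under 0.05 there were 2 members, Col1a1 (1.48, SE 0.45) and Col8a1 (0.92, SE 0.25), and 551 genes. Of the 11 members, 10 had positive slopes there, and Lum had -0.17 (SE 0.23). The median of the 11 slopes was 0.56, beside -0.02 over all genes, of which 46.3% had positive slopes. The 11 were called in a fit that held these tumours, so this count is a description. The 5 tumours of higher content were not fitted on their own. Without Res 499 replicates 2 and 3, the tumours farthest from the median content, 9 of the 11 passed, beside 1.28% of all genes, and Dcn (1.90, adjusted p = 0.0511) and Lum (0.42, adjusted p = 0.27) did not. Without Res 499 replicate 7 Col12a1 missed (1.23, adjusted p = 0.0783) and Fap passed.

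**Figure D4:**
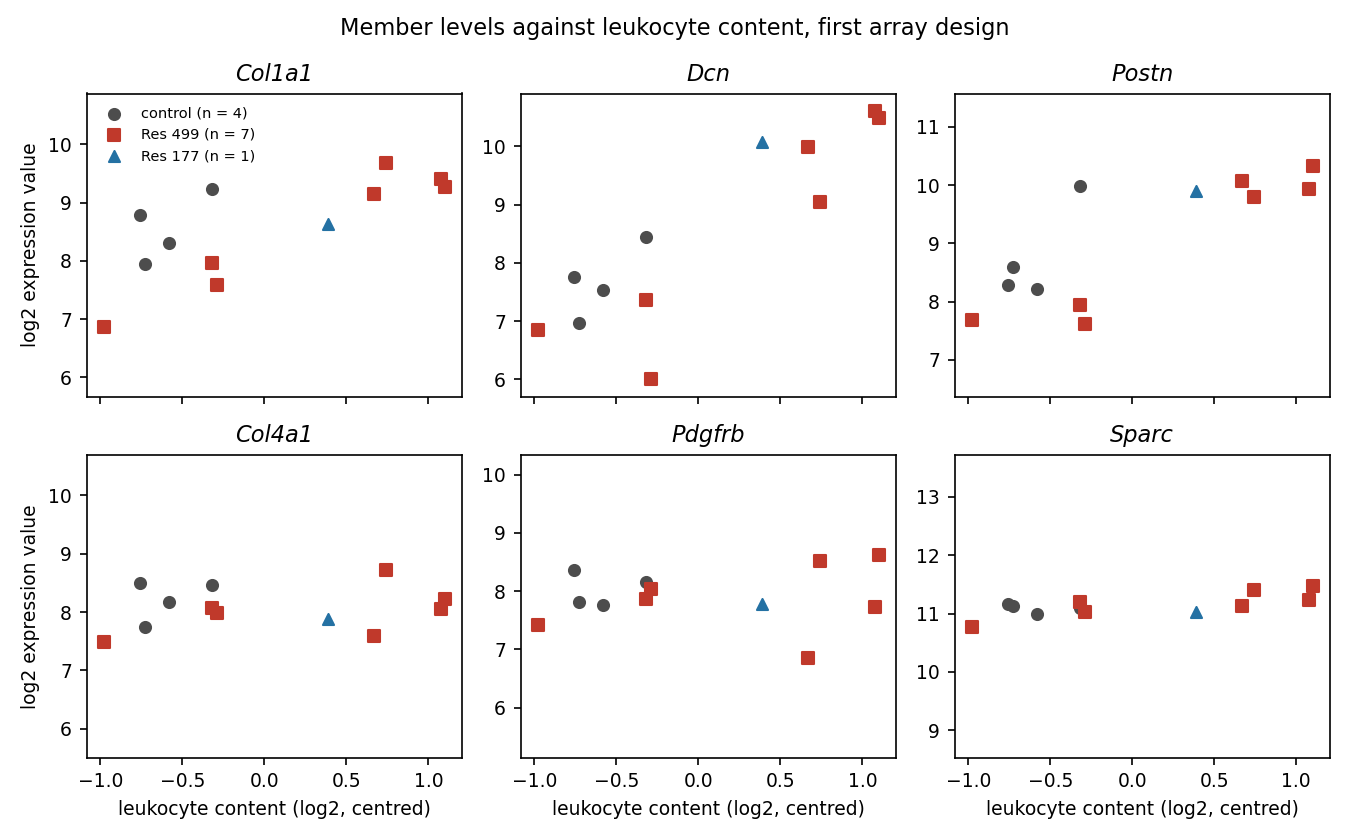
Log2 levels of 6 members against leukocyte content in the 12 tumours of the first design, with every vertical axis spanning the same number of log2 units. All 5 tumours to the right of the gap lie above the other 7 for Dcn. For Col1a1 and Postn control replicate 2, left of the gap at 9.23 and 9.99, lies among them. For Col1a1 control replicate 4 (8.78), also left of the gap, lies above Res 177 (8.64). Col4a1 and Pdgfrb overlap across the gap, and Sparc varies little.

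With leukocyte content in the fit, no member passed in Res 499 against control, beside 0.168% of all genes. The difference of Col1a1 moved from -0.01 to -1.15 (adjusted p = 0.0857), that of Postn from 0.28 to -1.05, of Dcn from 0.94 to -0.93, of Col12a1 from 0.06 to -0.88 and of Fn1 from -0.19 to -0.84. The members then had a median of -0.06, with 15 higher and 36 lower, beside 0.01 over all genes, of which 53.6% were higher. At an unadjusted p under 0.05 there were 7 members and 1958 genes. At the same leukocyte level the fitted values of Col1a1, Postn, Dcn, Col12a1 and Fn1 were thus lower in Res 499 than in control. None of these 5 differences passed the threshold.

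The same comparison was made with markers of other cells in place of leukocyte genes, chosen after the data were seen. On the mean of 17 fibroblast genes that are no members, 12 members increased (the 11 and Fap, 23.5%), beside 2.17% of all genes. Dcn had 5.17 (SE 0.40), Col1a1 2.93 (SE 0.38) and Fap 1.01 (SE 0.18) per log2 unit. Fibroblast and leukocyte means move together over these tumours, from -0.35 and -0.98 in Res 499 replicate 7 to 0.51 and 1.08 in replicate 2, so a tie to the one and to the other cannot be told apart. On the mean of 12 endothelial genes, 2 members increased, Col8a1 (2.31, SE 0.39) and Col6a3 (1.88, SE 0.32), beside 0.385% of all genes. This count rested on single tumours: it was 14 without Res 499 replicate 5, where 370 genes passed in place of 68, and between 0 and 2 with any other tumour left out. In the full fit other members had positive slopes of several SE that missed the threshold. Among them were Col15a1 (1.17, SE 0.23, adjusted p = 0.0607), Col4a1 (1.24, SE 0.29, adjusted p = 0.102), Col1a1 (2.80, SE 0.71, adjusted p = 0.12) and Pdgfrb (1.54, SE 0.43, adjusted p = 0.145). Col6a4 had a negative slope (-0.47, SE 0.17, adjusted p = 0.254).

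Res 499 replicate 5 stood apart from replicates 1, 2 and 3, the other Res 499 tumours of high leukocyte content. It was high for Dcn (9.98), Postn (10.07) and Col3a1 (9.03) but held the lowest values of the first design for Col4a2 (6.82), Col15a1 (6.26) and Pdgfrb (6.86). Its endothelial mean was -0.23, against 0.45, 0.30 and 0.32 in replicates 1, 2 and 3 and -0.10 in Res 177, and its mean of 7 adipocyte genes was 1.57, against -0.37 to 0.17 in the other 11 tumours. Without it 13 members passed on leukocyte content, the 11 with Col15a1 and Fap, while the share of all genes that passed was 3.56% in place of 2.68%. Replicate 1 held the highest values for Col4a1 (8.72), Col6a1 (9.02), Col6a2 (8.43), Col6a3 (8.55) and Acta2 (10.20), with the highest mean of pericyte and smooth muscle genes (0.27). These genes were picked after their values were seen, and the part of these cells in the values was not tested.

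The 11 members also varied together. After removal of group means, the median correlation between pairs of them over the 12 arrays was 0.91 (0.72 to 0.99), against 0.14 among the other 40; the arrays and group terms are shared, the 11 were called on a common covariate, and these values are a description. The members most like Col1a1 were Col1a2 (r = 0.99), Col5a2 (0.96), Col12a1 (0.95), Col3a1 (0.94) and Col14a1 (0.94). Only 0.0661% of all tested genes had a higher r with Col1a1 than Col14a1. Some of the closest pairs are neighbours in the genome: Col3a1 and Col5a2 (r = 0.95), Col4a1 and Col4a2 (0.97), Col6a1 and Col6a2 (0.95), and Dcn and Lum (0.94). Other neighbours were less alike, with r = 0.57 for Col6a5 and Col6a6, 0.50 for Col6a4 and Col6a5, -0.08 for Col4a3 and Col4a4, and -0.48 for Col4a5 and Col4a6. Most of these genes were dim: Col4a3, Col4a4, Col4a6, Col6a4 and Col6a5 averaged 5.10 to 5.41, near the filter at 4.94. Col6a6 averaged 6.06 and Col4a5 6.48. Genes of the closer pairs averaged 5.78 (Lum) to 8.45 (Col6a1). The part of level in these r values was not tested. Col1a1 and Col1a2 lie on different chromosomes. Col4a1 and Col4a2 lie head to head on opposite strands, and their RefSeq (GRCm38.p6) start sites are 21 bases apart, placed so that the 5' ends overlap.

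The promoters of 3 members of the co-varying set are shown to let their sequences be compared, as the 150 bases before the RefSeq start site (GRCm38.p6, plus strand). Promoter entries were found for 39 of the 53 members, Col1a1 and Dcn not among them. For Postn the later of 2 listed start sites was taken. Capitals mark CCAAT or TATAAA, each searched on both strands.
Col1a2, chr6:4505468-4505617: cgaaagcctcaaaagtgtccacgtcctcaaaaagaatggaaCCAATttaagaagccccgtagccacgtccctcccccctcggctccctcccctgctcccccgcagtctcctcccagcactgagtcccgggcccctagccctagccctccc
Col3a1, chr1:45311388-45311537: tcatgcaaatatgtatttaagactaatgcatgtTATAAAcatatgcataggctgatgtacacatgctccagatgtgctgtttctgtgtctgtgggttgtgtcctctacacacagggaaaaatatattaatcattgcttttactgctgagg
Postn, chr3:54360957-54361106: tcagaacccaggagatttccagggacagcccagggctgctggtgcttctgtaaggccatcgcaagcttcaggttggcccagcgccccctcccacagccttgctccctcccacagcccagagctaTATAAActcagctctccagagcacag
Col1a2 holds CCAAT 109 bases before its start, Col3a1 holds TATAAA 117 bases before its start and Postn TATAAA 26 bases before its start. The stretches differ in base composition, with 62.7% G and C in Col1a2, 60% in Postn and 37.3% in Col3a1, against a median of 54% over all promoters. CCAAT occurred in 8 of 43 promoter entries of members (18.6%) and in 24.5% of all 32851 entries, and TATAAA in 5 of 43 (11.6%) and 7.57%. These are matches of letters and no sites of binding.

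Genes of the matrix pathway that are no members were followed in the same fits. None of the genes in 8 pathway lists passed in Res 499 against control, where the list medians lay between -0.08 and 0.38. Of the 5 crosslinking genes tested, 3 increased with leukocyte content: Lox, the lysyl oxidase that starts collagen crosslinks (1.60, SE 0.29), the transglutaminase Tgm2 (0.88, SE 0.10) and Loxl1 (0.63, SE 0.13). Of 33 further proteoglycans and glycoproteins 8 increased, led by tenascin C (Tnc, 1.55, SE 0.20), Tgfbi (1.55, SE 0.12) and Ogn (1.05, SE 0.23). Of 22 matrix proteases and inhibitors 2 increased, the gelatinase Mmp2 (0.86, SE 0.18) and the stromelysin Mmp3 (0.77, SE 0.16). Of the 21 genes of collagen processing, the hydroxylases, chaperones and propeptidases that make collagen chains, 0 passed, beside the 2.55% of all genes that passed upwards. Positive slopes were found for 13 of the 21, beside 43.6% of all genes.

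Of 11 elastic fibre genes Mfap5 increased (1.47, SE 0.21), of 14 basement membrane genes Lama2 (0.39, SE 0.08), and of 18 collagen and fibronectin receptors the leukocyte collagen receptor Lair1 (0.74, SE 0.10) and the integrin chain Itgb5 (0.70, SE 0.12). Of 17 genes of TGF-beta and PDGF signalling the ligand Pdgfc increased (0.63, SE 0.08). Of the cell type lists, 6 of 16 fibroblast genes increased, led by Dpt (2.08, SE 0.25), Mfap5 and Dpp4 (0.50, SE 0.11). So did 15 of 16 macrophage genes (Adgre1 1.76, SE 0.09) and 2 of 12 endothelial genes, Emcn (0.50, SE 0.10) and Pecam1 (0.43, SE 0.09). None of 13 pericyte and smooth muscle genes, 10 melanocyte, 10 skeletal muscle, 10 keratinocyte and 7 adipocyte genes passed.

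When the 8 resistant tumours were set against the 4 sensitive ones by the response label, 0 of 51 members passed, beside 0.613% of all genes (smallest member adjusted p = 0.288). The 102 genes behind that share became 9 without control replicate 4. In the full set 2224 genes and 2 members, Col10a1 (-0.25, SE 0.10) and Lum (0.69, SE 0.29), had an unadjusted p under 0.05. One pathway gene passed: Tgfb2, a TGF-beta ligand that induces collagen synthesis, fell by 0.67 (SE 0.14, adjusted p = 0.049). This call held in 1 of 12 fits that left out a tumour, that without control replicate 5 (adjusted p = 0.00478), and was lost in the others, with adjusted p up to 0.219 without control replicate 4.

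With only 1 Res 177 tumour on the first design, its spread was assumed to equal that of the other groups. Against control, 0 of 51 members passed, beside 0.21% of all genes, and the median member difference was -0.01, beside 0.01 over all genes. At an unadjusted p under 0.05 there were 679 genes and 2 members, Col17a1 and Col6a6. Dcn stood at 10.07, above all 4 controls (difference 2.40, SE 1.49, adjusted p = 1), Col12a1 at 8.05 (1.36, SE 0.82) and Lum at 6.43 (1.11, SE 0.53), while Col1a1, at 8.64, lay inside the control range. With leukocyte content in the fit these differences were 0.31 for Dcn, 0.32 for Col12a1 and 0.41 for Lum. Others moved away from 0, with Col1a1 going from 0.08 to -1.20 and Fn1 from -0.39 to -1.11. The member median became -0.20, with 20 members higher and 31 lower, beside 0.02 over all genes, of which 54.7% were higher. Against Res 499, 0 of 51 members passed, beside 0.234% of all genes, with 488 genes and 1 member, Col17a1, at an unadjusted p under 0.05. Col17a1, the hemidesmosomal collagen of epidermis, stood at 6.05 in this tumour and between 5.53 and 5.83 in the other 11. The same tumour was higher in 9 of 10 keratinocyte and hair follicle genes (Krt14 at 8.26, against 5.53 to 5.94 in Res 499). The list mean there was 2.57, against -0.07 to 0.12 in control; its part in the Col17a1 value was not tested.

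On the second design 1 Res 177 and 1 control tumour allow no test. None of the 51 members above the filter there differed by more than 1 log2 unit, beside 1.67% of all genes. The 4 largest higher values were those of Dcn (7.07 in control and 8.04 in Res 177, a difference of 0.98), Col8a1 (0.65), Acta2 (0.61) and Fn1 (0.42). The largest lower ones were those of Col4a2 (8.24 and 7.80, -0.44), Col10a1 (-0.30), Col2a1 (-0.24) and Pdgfrb (-0.13). Of these 8 genes Fn1 had opposite signs on the designs (-0.39 on the first), and the other 7 had the same sign on both. For Fn1 (SE 0.68), Col8a1 (0.03, SE 0.64) and Pdgfrb (-0.24, SE 0.51) the sign on the first design rests on a difference smaller than its error. The median was 0.05, beside 0.04 over all genes, with 37 members higher, 12 lower and 2 with exactly equal deposited values; 58.5% of all genes were higher. With both arrays centred on their medians 19 members were higher and 32 lower, beside 39.8% of all genes higher, and the median was -0.04, so the members' balance follows the scaling. Of 49 members above the filter on both designs, 30 had the same sign of the Res 177 difference, and 31 with the second design centred. No such share over all genes is given here, so the count alone does not measure agreement.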

How the data were processed

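Deposited were log2 values, 1 per probe set and array. The authors used RMA and oligo, per the submitters' processing notes. Of the versions, annotation and build, nothing is given in the sources used here. No source names the scale, which the range of the values shows to be log2. RMA normalizes arrays to a common distribution, and the 2 designs were normalized separately, so their levels were not compared.

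Probe sets with exactly 1 symbol in the platform annotation were kept, with the highest mean per gene. Genes in the lowest 25% by mean were left out. Linear models were fitted with limma 3.58.1 (lmFit, eBayes; R version 4.3.3). P-values were adjusted by Benjamini and Hochberg's method over all 16635 genes, at a threshold of 0.05. The 3 groups of the first design shared 1 spread; resistant against sensitive was a separate fit. The slope on leukocyte content was a term beside the groups. The fit was tested on simulated data. Arrays carry no depth; their number limits the precision.

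Named in full were members called in any fit, members with non-overlapping groups, 20 well-known members, the extremes of each class, and the 4 largest differences each way on the second design. Of list genes, those called between groups and up to 3 per list by slope were named. Members and lists were chosen with earlier results of these data known. Replicate numbers follow the order of deposit and only name a tumour.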

Additional observations from a re-analysis of the deposited data

Results flagged for a closer look

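In 68 groups of a member's values, 3 held a tumour far from the rest by Dixon's criterion, which chance gives in about 1 of 20 groups. Col10a1 stood at 6.60 in Res 499 replicate 6, where the other 6 tumours lay between 6.16 and 6.35. Col26a1 stood at 6.91 in control replicate 3, below the other controls at 7.17 to 7.22, and at 7.31 in Res 499 replicate 6, above the others at 7.03 to 7.11.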

How the results depend on the processing

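Counts of members past the threshold between groups stayed at 0 under all alternatives run: no filter or a filter of 50%, the mean of all probe sets, median centring, quantile normalization, a trended prior, array weights, each tumour left out (other than the single Res 177 tumour where its own comparisons need it) and, except for Res 499 against Res 177, leukocyte content as a covariate. The member median on the second design was -0.04 after median centring and 0.04 to 0.05 otherwise. The 11 slopes on leukocyte content numbered 9 to 12 under the other planned settings, 17 with array weights (5.51% of all genes) and 11 to 13 with each tumour left out. Leaving out Res 499 replicate 7 or 3 lowered the genes called from 445 to 262 and 295. Alternatives added after seeing the data gave 0 in the 7 tumours of lower content, 2 on endothelial genes, 12 on fibroblast genes and 11 in Res 499 alone; the cause of these changes was not tested.

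With leukocyte content in the fit, the Res 177 median moved to -0.20, and these Res 499 differences turned negative: Col12a1 -0.88, Col14a1 -0.57, Col15a1 -0.15, Col1a2 -0.75, Col3a1 -0.56, Col5a1 -0.22, Col5a2 -0.25, Col6a1 -0.15, Col6a3 -0.44, Col8a1 -0.78, Dcn -0.93, Fap -0.26, Pdgfra -0.41, Postn -1.05 and Sparc -0.12. With each tumour left out, Col23a1 ranged from -0.18 to 0.05 and Col25a1 from -0.10 to 0.09, both turning without control replicate 5. Slopes turned for Acta2 (-0.21) and Col2a1 (-0.08) without Res 499 replicate 7. In the lower-content tumours they turned for Col10a1 (0.29), Col23a1 (0.19), Col25a1 (0.11), Col26a1 (0.22), Col4a3 (0.16), Col6a5 (0.52), Col6a6 (0.06), Col7a1 (0.16), Fap (-0.21) and Lum (-0.17). Without the 2 tumours farthest from the median content they turned for Col23a1 (0.09), Col6a5 (0.13) and Col6a6 (0.01). Other sign changes were of values not called and moved by less than their SE. No paired analysis was possible because the labels give no replicate numbers.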
